A study of Mus musculus with 9 samples.

Results

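The HoxA cluster was followed through 7 of its genes, Hoxa2, Hoxa3, Hoxa4, Hoxa5, Hoxa7, Hoxa9 and Hoxa10, in the order of their paralog numbers. Every probe set whose annotation named only that gene was taken, with no selection on its values, which gave 14 probe sets for the 7 genes out of 45101 probe sets and 18193 named genes. Hoxa2 and Hoxa7 had 1 probe set each, Hoxa3 had 4, and Hoxa4, Hoxa5, Hoxa9 and Hoxa10 had 2 each. Values are log2 levels, and a probe set was tested where at least 3 of the 9 arrays read more than 4. That held for 11 of the 14, and the exceptions were both Hoxa10 probe sets and the Hoxa3 probe set 1429398_at.

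Hox genes encode homeodomain transcription factors that give cells along the head-to-tail axis their position. Within a cluster the genes lie in the order in which they are used: those at the 3′ end, with low numbers, act in the hindbrain and neck, and those toward the 5′ end act further down the spinal cord. Retinoic acid is known to switch on the 3′ genes in neural progenitors, while FGF signals and the Cdx factors, caudal homeobox proteins, act on the central and 5′ genes, and the resulting Hox code sets which muscles a motor neuron innervates.

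RNA from 3 kinds of mouse culture was measured with 3 arrays each. The Cdx2 and FGF cultures, collected at day 5, were embryoid bodies given 1 µM retinoic acid and 0.5 µM of a hedgehog agonist from day 2, then 2 µg/ml doxycycline on day 3 for 6 to 8 hours and 100 ng/ml basic FGF. The motor neuron cultures, also collected at day 5, received retinoic acid and the hedgehog agonist alone. The embryonic stem (ES) cells were taken at day 0, untreated, from a layer of mitotically inactive fibroblasts. All 9 arrays came from Ainv15 ES cells, a single line, with a construct from which doxycycline induces V5-tagged Cdx2, so the uninduced construct was present in the motor neuron cultures and the ES cells too. Doxycycline, Cdx2 and FGF were given together, and their parts in any difference cannot be told apart. The protocol also mentions reduced retinoic acid and agonist after the doxycycline was washed out, and does not name the cultures concerned. These doses may therefore also differ between the day 5 cultures, and their part cannot be told apart either. No label gives the arrays of a group separate cultures of origin, so p-values reflect only how far arrays of a group differ, possibly for technical reasons, and the number of arrays limits the precision.

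Correlations between arrays of a group were 0.998 in the Cdx2 and FGF cultures, 0.995 to 0.997 in the motor neuron cultures and 0.963 to 0.973 in ES cells, over all probe sets. The Cdx2 probe set 1422074_at read 8.27, 8.99 and 8.59 in the Cdx2 and FGF cultures, against 2.17, 2.17 and 2.24 in the motor neuron cultures and 2.17 on all ES arrays, a rise of at least 24.5-fold over the motor neuron cultures (adjusted p = 1.56e-07). The dimmer 1422075_at read 6.39, 7.11 and 6.6 in the Cdx2 and FGF cultures, against 2.63 on all motor neuron arrays and 2.7, 2.63 and 4.56 in ES cells, a bound of 6.49-fold over the motor neuron cultures. The labelled cell types were checked on markers. Among 14 genes of motor neurons and their ventral progenitors, 8 of 11 tested were lower in the Cdx2 and FGF cultures than in the motor neuron cultures. That compares with 8.57% of all tested probe sets. Chat and Slc5a7, which define cholinergic neurons, stayed under 4 on all 9 arrays. All 12 pluripotency markers were higher in ES cells than in either day 5 culture. Of these, 11 were under 4 on all arrays of both day 5 cultures and passed the filter through the ES arrays. The filter thus fixed their direction, and their count is a description. Over all tested probe sets, 27.9% were lower in the motor neuron cultures than in ES cells, and 24.7% in the Cdx2 and FGF cultures. The control for the 3′ end of 18S rRNA read 15.32 to 15.42, 15.45 to 15.51 and 5.86 to 6.6 in the Cdx2 and FGF cultures, the motor neuron cultures and ES cells. For Actb the 3′ control exceeded the 5′ control by -0.1 to -0.01, -0.05 to -0.03 and 1.87 to 2.3 in the same order. For Tfrc it did so by -1.74 to -1.43, -1.57 to -1.39 and 5.59 to 6.86. The ES arrays therefore stood apart in these controls, while the 2 kinds of day 5 culture were close to each other. How far this enters the differences from ES cells was not tested.

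RefSeq (GRCm38.p6) promoter windows were available for 6 of the 7 members, and the 250 bases before the start are shown 5′ to 3′ on the transcribed strand, the minus strand, for the gene at the 3′ end and for those on either side of the change of direction described below. Capitals mark matches to AATAAA or CATAAA, the core letters of Cdx binding sites, searched on both strands, so that a match on the opposite strand reads TTTATT or TTTATG. The 2 motifs differ in their first letter only and no stretch can match both.
Hoxa2: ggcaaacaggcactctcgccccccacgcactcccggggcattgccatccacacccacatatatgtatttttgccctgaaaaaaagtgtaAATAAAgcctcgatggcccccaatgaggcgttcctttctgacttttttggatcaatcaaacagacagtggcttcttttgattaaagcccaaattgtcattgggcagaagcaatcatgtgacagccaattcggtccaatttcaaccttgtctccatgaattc
Hoxa5: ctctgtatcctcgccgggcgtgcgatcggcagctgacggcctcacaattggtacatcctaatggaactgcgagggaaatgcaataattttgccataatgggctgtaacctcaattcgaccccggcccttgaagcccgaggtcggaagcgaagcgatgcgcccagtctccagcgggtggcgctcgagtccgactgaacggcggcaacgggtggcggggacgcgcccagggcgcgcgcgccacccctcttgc
Hoxa7: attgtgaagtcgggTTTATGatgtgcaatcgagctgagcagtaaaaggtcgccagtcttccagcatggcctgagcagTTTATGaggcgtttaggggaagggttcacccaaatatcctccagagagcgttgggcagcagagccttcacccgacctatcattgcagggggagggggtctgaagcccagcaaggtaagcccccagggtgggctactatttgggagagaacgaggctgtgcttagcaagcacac
Hoxa9: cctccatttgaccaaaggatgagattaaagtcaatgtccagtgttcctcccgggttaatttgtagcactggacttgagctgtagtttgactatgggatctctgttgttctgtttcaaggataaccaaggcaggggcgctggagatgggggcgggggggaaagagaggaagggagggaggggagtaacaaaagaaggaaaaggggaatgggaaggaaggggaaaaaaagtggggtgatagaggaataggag
These windows are chr6:52164832-52165081 for Hoxa2, chr6:52204588-52204837 for Hoxa5, chr6:52218574-52218823 for Hoxa7 and chr6:52227371-52227620 for Hoxa9. The Hoxa7 window held 2 CATAAA matches, with first bases 236 and 173 before the start, and the Hoxa2 window held 1 AATAAA match, 161 before it. The windows of Hoxa3, Hoxa5 and Hoxa9 held 0, and of the 2 Hoxa10 windows 1 held an AATAAA match. Either motif was present in 25.5% of 32851 mouse windows of this length. The Hoxa5 window held 28 CpG dinucleotides, more than 92.4% of those windows, while the Hoxa2, Hoxa7 and Hoxa9 windows held 6, 7 and 3 against a median of 6. Such matches describe the letters of a window and are no evidence of binding.

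The day 5 cultures differ in the doxycycline-induced Cdx2 and the FGF, and possibly in the later doses of retinoic acid and agonist. Between them, the HoxA cluster split into a 3′ side that was lower and a 5′ side that was higher in the Cdx2 and FGF cultures. Hoxa2, Hoxa3, Hoxa4 and Hoxa5 were lower, by 2.38 to 6.71 on the log2 scale except for 1 weaker Hoxa3 probe set at -1.35. Hoxa7 and Hoxa9 were higher by 3.7 to 8.99. The sign changed between Hoxa5 and Hoxa7, and Hoxa10 was under 4 on all 9 arrays. Of the 11 tested probe sets, 3 were called higher, against 10.9% of the 21523 probe sets tested, and 8 were called lower, against 8.57%. A call required an adjusted p under 0.05 (limma, Benjamini-Hochberg over all probe sets tested) and a log2 difference of at least 1. The groups did not overlap for any of the 11, while 34.2% of all tested probe sets lay wholly above and 26.7% wholly below. The median absolute difference was 3.68 over the 11 and 0.4 over all tested probe sets. Hoxa7 and Hoxa9 exceeded 4 in the Cdx2 and FGF cultures alone, so passing the filter left them no direction but up. No alternative changed the call of a HoxA probe set it tested in this comparison, but a filter at 6 left Hoxa3 1431392_at untested and 7 called lower.

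**Figure D1:**
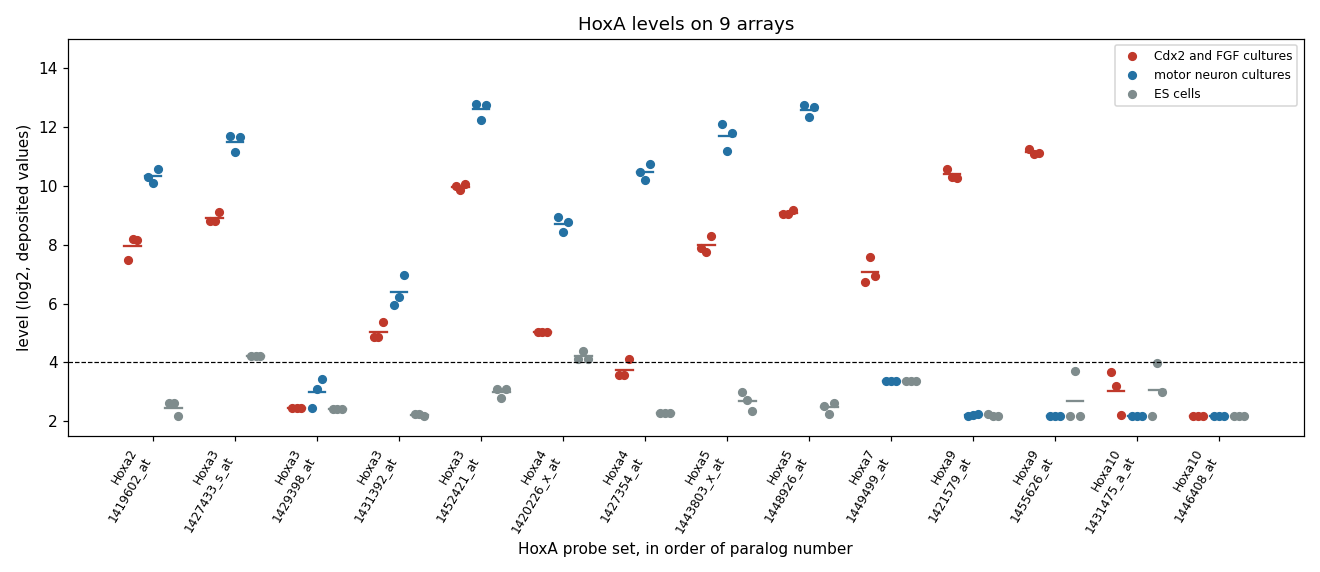
Log2 expression of the 14 HoxA probe sets on each of the 9 arrays, ordered by paralog number along the horizontal axis; each point is 1 array, the short bars are group means and the dashed line is the threshold of 4. The points for Hoxa2 to Hoxa5 lie highest in the motor neuron cultures, with the Cdx2 and FGF cultures between them and the ES cells on most probe sets, and those for Hoxa7 and Hoxa9 lie above 4 in the Cdx2 and FGF cultures alone.

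Hoxa2, which patterns the hindbrain and the neural crest of the second branchial arch, was the most 3′ member measured, and it was lower in the Cdx2 and FGF cultures. Its probe set read 7.49, 8.19 and 8.15 there, against 10.3, 10.11 and 10.57 in the motor neuron cultures and 2.61, 2.61 and 2.17 in ES cells. The 3 groups did not overlap, and both day 5 cultures lay far above the ES cells. The difference between the day 5 cultures was -2.38 (SE 0.273, 95% interval -3 to -1.77, adjusted p = 0.000199), a 5.22-fold lower level.

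Hoxa3, required for the thymus, the parathyroids and parts of the hindbrain, was lower in the Cdx2 and FGF cultures on each of its 3 tested probe sets. The brightest, 1452421_at, read 9.99, 9.86 and 10.08 in the Cdx2 and FGF cultures, against 12.8, 12.25 and 12.76 in the motor neuron cultures and 3.09, 2.78 and 3.09 in ES cells. It was 6.18-fold lower (-2.63, SE 0.211, 95% interval -3.11 to -2.15, adjusted p = 2.12e-05), and 1427433_s_at gave nearly the same size, 6.03-fold (-2.59, SE 0.215). The dimmer 1431392_at read 4.87, 4.87 and 5.36 against 5.96, 6.22 and 6.96 in the motor neuron cultures, with no overlap and a smaller difference of -1.35 (SE 0.286, adjusted p = 0.00696). The untested 1429398_at was at or below 3.45 on all 9 arrays. In the RefSeq annotation the span of Hoxa3 overlaps Hoxa4, Hoxa5 and Hoxa6, because its annotated start lies beyond them, and whether these probe sets read such long transcripts was not tested.

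Hoxa4, a factor of the neck region, had the largest negative difference of the cluster on 1 probe set and a smaller one on the other. Probe set 1427354_at read 3.57, 3.57 and 4.13 in the Cdx2 and FGF cultures, against 10.47, 10.2 and 10.73 in the motor neuron cultures and 2.28 on all 3 ES arrays. Of the 3 Cdx2 and FGF arrays, 2 were under the threshold of 4 and 1 was just over it, so the fold is a bound. It was at least 85.9-fold lower than in the motor neuron cultures (-6.71, SE 0.245, 95% interval -7.27 to -6.16, adjusted p = 1.89e-07). Probe set 1420226_x_at read 5.03 on all 3 Cdx2 and FGF arrays, against 8.96, 8.42 and 8.77 in the motor neuron cultures and 4.1, 4.4 and 4.1 in ES cells, a 12.9-fold lower level (-3.68, SE 0.224, adjusted p = 3.78e-06). The 3 identical values are a feature of the deposited table: among tested probe sets over 4 on the 3 Cdx2 and FGF arrays, 1.92% held the same value on all 3. The 2 probe sets shared the direction and differed in size, and probe sets of the x_at kind can read related sequences.

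Hoxa5, which in the spinal cord is needed for the phrenic motor neurons that drive the diaphragm, is the last member on the 3′ side of the change. Probe set 1448926_at read 9.03, 9.03 and 9.17 in the Cdx2 and FGF cultures, against 12.74, 12.35 and 12.68 in the motor neuron cultures and 2.53, 2.24 and 2.63 in ES cells. The groups were far apart, with the Cdx2 and FGF cultures between the other two. It was 11.4-fold lower than in the motor neuron cultures (-3.51, SE 0.204, 95% interval -3.98 to -3.05, adjusted p = 2.82e-06), and 1443803_x_at was 13.2-fold lower (-3.72, SE 0.301). Hoxa5 in the Cdx2 and FGF cultures was thus below its level in the motor neuron cultures and far above its ES level.

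Hoxa7, a gene of the trunk, is the first member beyond Hoxa5 that was measured, and its sign was the opposite. It read 6.72, 7.58 and 6.94 in the Cdx2 and FGF cultures, against 3.38, 3.37 and 3.38 in the motor neuron cultures and 3.38 on all 3 ES arrays. Only the Cdx2 and FGF arrays exceeded 4, and the motor neuron cultures could not be told from ES cells. The rise was at least 8.45-fold over the motor neuron cultures (3.7, SE 0.245, 95% interval 3.15 to 4.26, adjusted p = 6.21e-06).

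Hoxa9, which acts at thoracic levels of the cord and in blood progenitors, rose on both of its probe sets. Probe set 1455626_at read 11.26, 11.1 and 11.11 in the Cdx2 and FGF cultures, against 2.17 on all 3 motor neuron arrays and 2.17, 3.7 and 2.17 in ES cells. It was at least 143-fold higher than in the motor neuron cultures (8.99, SE 0.388, 95% interval 8.11 to 9.87, adjusted p = 5.21e-07). Probe set 1421579_at read 10.58, 10.31 and 10.28 against 2.19, 2.21 and 2.23 in the motor neuron cultures, at least 83.7-fold higher (8.18, SE 0.19, adjusted p = 3.27e-08). On both probe sets every Cdx2 and FGF array exceeded 10 and every motor neuron array was under 4.

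Hoxa10, a gene of the lumbar cord and the uterus, was the most 5′ member and exceeded 4 on none of the arrays. Probe set 1431475_a_at read 3.66, 3.19 and 2.2 in the Cdx2 and FGF cultures, against 2.17 on all 3 motor neuron arrays and 2.18, 3.97 and 2.99 in ES cells. All 9 values were under 4, and the Cdx2 and FGF and ES arrays overlapped. The other, 1446408_at, was at 2.17 on all 9 arrays. No level was detectable above the threshold, which does not show that the transcript was absent, and the same holds for Hoxa11, Hoxa13 and the antisense gene Hoxa11os, whose 4 probe sets read 2.17 throughout.

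**Figure D2:**
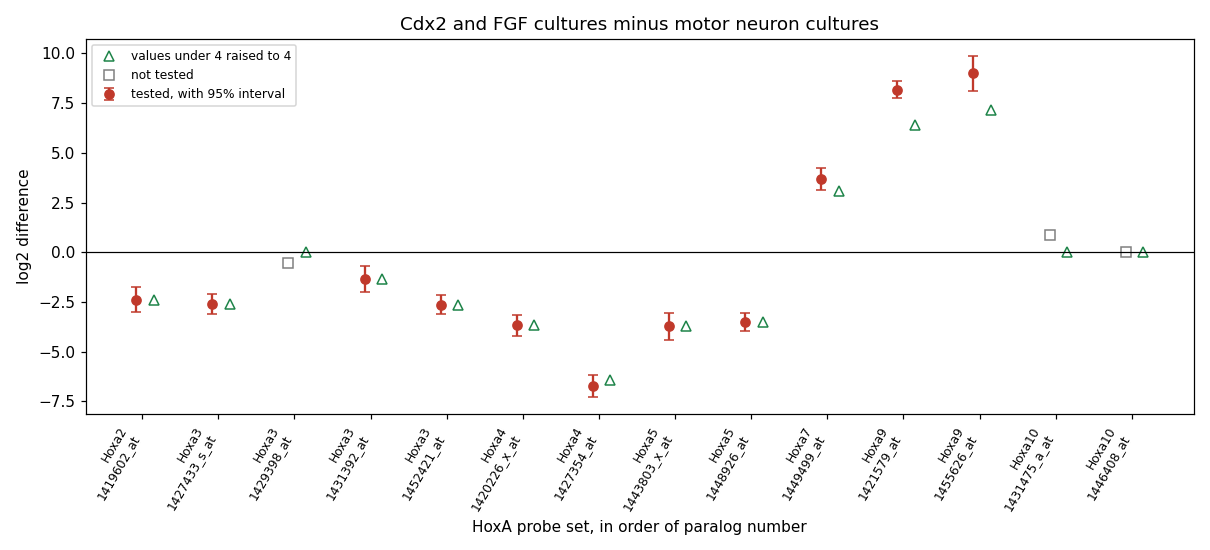
Log2 difference between the Cdx2 and FGF cultures and the motor neuron cultures for the HoxA probe sets, ordered by paralog number, with 95% intervals from limma for the tested probe sets. Every tested probe set of Hoxa2 to Hoxa5 lies below 0 and those of Hoxa7 and Hoxa9 lie above it; the untested ones are drawn without an interval.

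The intervals of Hoxa2 and of the brightest Hoxa3 probe set overlapped, and that of Hoxa5 1448926_at overlapped the Hoxa3 interval only at its end. Among the probe sets called lower, no interval of Hoxa2 or Hoxa3 reached that of Hoxa4 1427354_at. Sizes were not tested against each other, since probe sets differ in how strongly they respond to the same change. Within the motor neuron cultures, replicate 2 was the lowest array on 7 of the 8 HoxA probe sets that exceeded 4 there, while it was the lowest for 20.3% of the 19139 tested probe sets over 4. Leaving out each array in turn, this one included, kept the difference of Hoxa5 1448926_at between -3.64 and -3.44, that of Hoxa2 between -2.51 and -2.16, and that of Hoxa9 1455626_at between 8.94 and 9.02.

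The change of direction was set beside the same comparison in the HoxB, HoxC and HoxD clusters, where genes with the same number are paralogs. Paralogs are named here after their values were seen, in addition to those the naming rule gave. Paralogs of the 3′ side were lower: Hoxb2 by 3.74-fold, Hoxb4 by 13.2-fold on its brighter probe set, Hoxb5 by 11.3-fold, Hoxc4 by 3.38-fold, Hoxc5 by 31.1-fold and Hoxd3 by 22-fold, each with an adjusted p of 0.00129 or less (limma). Hoxb3 was 4.69-fold lower on 1427605_at, and its other probe set did not pass (adjusted p = 0.0798), though it did without ES replicate 1 (adjusted p = 0.0106) or ES replicate 2 (adjusted p = 0.00823). Group 9 paralogs were higher: Hoxb9 by at least 106-fold, Hoxc9 by at least 71.9-fold and Hoxd9 by at least 57.7-fold. Each had an adjusted p of 0.000212 or less (limma). The group 8 genes Hoxc8 and Hoxd8 were higher too, by at least 202-fold and by 42.4-fold. Hoxb9 and Hoxc9 exceeded 4 in the Cdx2 and FGF cultures alone, so passing the filter left them no direction but up.

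Group 6, absent from the HoxA members here, differed between clusters. Hoxb6 averaged 10.19 in the Cdx2 and FGF cultures and 12.98 in the motor neuron cultures, a 6.93-fold lower level. Hoxc6 was higher on 2 of its 3 probe sets, by 3.5 and 3.4 on the log2 scale, and the remaining 1427454_at read 4.69 against 4.62. The 2 higher Hoxc6 probe sets exceeded 4 in the Cdx2 and FGF cultures alone, so the filter fixed their direction. Hoxb7, the paralog of Hoxa7, averaged 4.04 against 3.02 and was not tested. Hoxc10 read 6.14, 4.88 and 2.55 in the Cdx2 and FGF cultures, against 2.27, 2.17 and 2.17 in the motor neuron cultures, with 2 arrays over 4, and was not tested. Hoxd10 was 2.17 on all 6 day 5 arrays. So in the paralogs of Hoxa10 the arrays of 1 group disagreed for Hoxc10 and showed no level for Hoxd10.

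**Figure D3:**
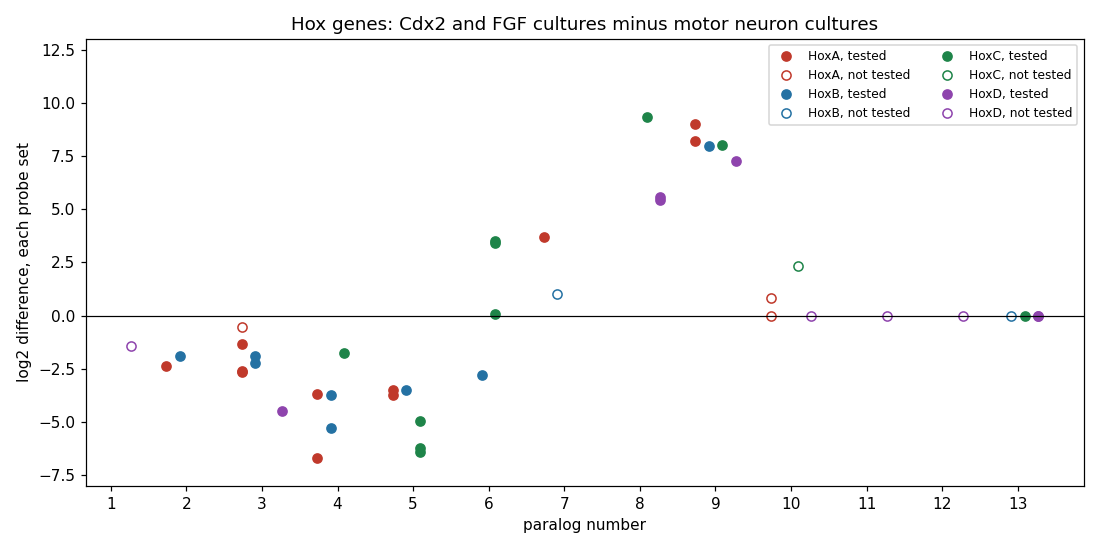
Log2 difference between the Cdx2 and FGF cultures and the motor neuron cultures for probe sets of the HoxA members and of the other 3 Hox clusters, by paralog number on the horizontal axis; each circle is 1 probe set, filled where it was tested and open where it was not. In each cluster the differences lie below 0 at numbers 2 to 5 and above 0 at 8 and 9 where a probe set was tested, and at number 6 they lie on both sides.

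Genes on either side of the cluster were examined to see how far along the chromosome the change reached. On the side of Hoxa2, Skap2, an adaptor protein of immune cells, gave -0.56, -1.12 and -1.38 on 3 probe sets, of which -1.38 was called (adjusted p = 0.00478). The -1.12 had an adjusted p of 0.0553 and reached a call without ES replicate 1 (adjusted p = 0.0113) or ES replicate 2 (adjusted p = 0.00661), while Snx10, a sorting nexin, gave -0.17 and -0.6 with no call. On the far side, beyond Hoxa13, Evx1, a homeobox gene of spinal interneurons, read 2.17 on all 9 arrays. Hibadh, an enzyme of valine breakdown, gave 0.8 and 0.73, which were under the required difference of 1 though the adjusted p values were 0.0076 and 0.00444. Tax1bp1, an autophagy receptor, gave -0.25 to -0.14 with no call, and Jazf1, a zinc finger gene, -0.86 (adjusted p = 0.165). Creb5, a transcription factor of the CREB family and the most distant gene taken, rose: 1457222_at read 5.09, 5.66 and 5.11 in the Cdx2 and FGF cultures, against 2.27, 2.27 and 2.19 in the motor neuron cultures, at least 2.44-fold higher (adjusted p = 5.63e-06). This probe set exceeded 4 in the Cdx2 and FGF cultures alone, so passing the filter left it no direction but up. The other 3 Creb5 probe sets were not tested.

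**Figure D4:**
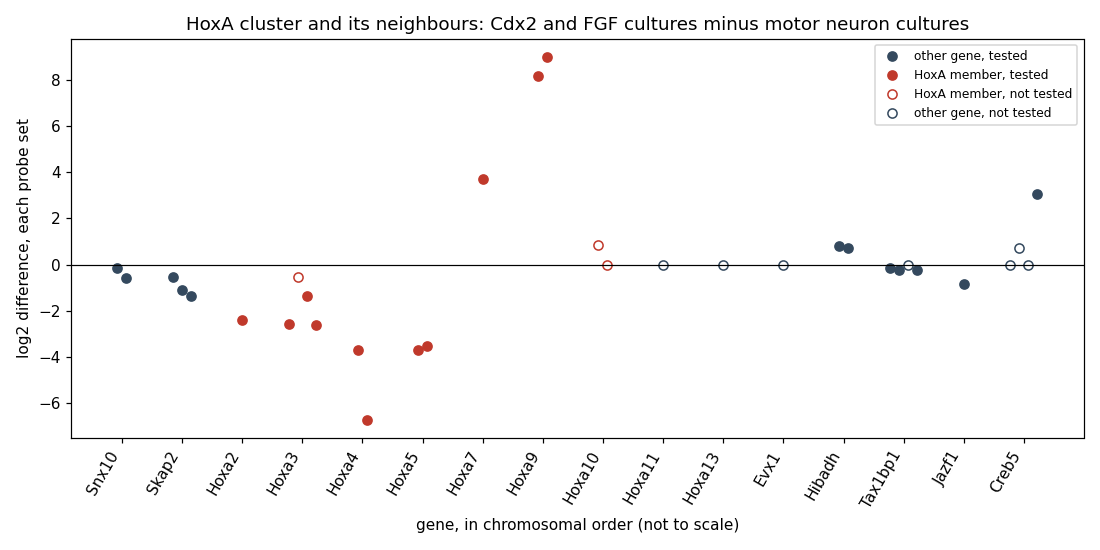
Log2 difference between the Cdx2 and FGF cultures and the motor neuron cultures for the HoxA probe sets and for genes beside the cluster, in their order along chromosome 6 and not to scale; each circle is 1 probe set, filled where it was tested and open where it was not. The tested flanking genes lie between -1.38 and 0.8 apart from Creb5 at 3.04, and the HoxA probe sets span -6.71 to 8.99.

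Genes that could act on the cluster were counted from lists. Of 9 tested genes among the known inducers of Hox genes, 4 were higher and 2 lower. The higher ones were Cdx2 itself, Cdx4, the retinoic acid receptor Rarg (7.08 against 4.21) and the FGF receptor Fgfr1 (11.21 against 10.11). Cdx4, a caudal gene, read 5.31, 6.06 and 5.46 in the Cdx2 and FGF cultures, against 2.17 on all motor neuron arrays. Cdx2 is the induced factor, so its call was set by the design. On the probe sets used, Cdx2 and Cdx4 exceeded 4 in the Cdx2 and FGF cultures alone, so the filter left them no direction but up. The receptors Rarb (7.13 in the Cdx2 and FGF cultures, 9.02 in the motor neuron cultures) and Rara (9.84 and 11.13) were lower, and Rara lost its call with no filter on low values and without any 1 of the 6 day 5 arrays (adjusted p = 0.0731 to 0.105). Fgfr1 gave 0.97 without motor neuron replicate 1 and 0.88 when its probe sets were averaged, both short of a call. Fgfr1 and Rara were named after their values were seen. Of 8 tested TALE genes, whose proteins bind DNA together with Hox proteins, 1 was lower, Pbx3, by 13.1-fold (adjusted p = 7.22e-07), and the other 7 had no call. Of 22 tested Polycomb, trithorax and H3K27 demethylase genes, which set the repressive and active marks over Hox clusters, 0 were higher and 1 was lower, Jarid2 by 2.11-fold (adjusted p = 0.000984), a call lost when the gene's probe sets were averaged (-0.97) or Cdx2 and FGF replicate 2 was left out (-0.96). The medians of these 3 lists were 0.99, -0.38 and 0.07 on the log2 scale, against 0.04 over all tested probe sets. Over all tested probe sets, 10.9% were called higher and 8.57% lower.

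Markers of other cell types moved with the HoxA changes. For the counts below, 10.9% of all tested probe sets were called higher and 8.57% lower in the Cdx2 and FGF cultures. Of 9 tested mesoderm and smooth muscle genes, 7 were higher and 1 was lower there, with a median of 6.74. Acta2, Tagln, Myl9 and Meox1 led, at lower bounds of 517-, 330-, 213- and 123-fold. Meox1 and Foxc1 exceeded 4 in the Cdx2 and FGF cultures alone, so the filter left them no direction but up. Foxc2 and Cnn1, under 4 on all motor neuron arrays, also needed Cdx2 and FGF arrays over 4 to be tested. The count and the median of this list are therefore a description. The lower gene, Gata6, exceeded 4 in the motor neuron cultures alone, and it lost its call with values under 4 raised to 4 (-0.78). The summed level of the 17 genes with a probe set (the sum of 2 to the power of each log2 value) was 29800 to 32600 in the Cdx2 and FGF cultures, 287 to 566 in the motor neuron cultures and 3220 to 18200 in ES cells, and Tbx6, Msgn1, Mesp1 and Mesp2, which define early mesoderm, were under 4 in both day 5 cultures. The fibroblast list, in which 4 of 7 tested genes were higher and 0 lower, summed over 13 genes to 2170 to 2770, 213 to 252 and 1950 to 9520 in the same order of groups. Its called genes were Col3a1, at least 15.5-fold, a call lost with no filter on low values (adjusted p = 0.0521), Twist1, 15.3-fold, Col5a1, 9.4-fold, and Col1a1, at least 8.6-fold, while Col1a2 and Pdgfra, not called, reached a call without ES replicate 1 or 2. Lum, Dcn, Postn, Thy1, Prrx1, Col6a1 and Fap were under 4 in the Cdx2 and FGF cultures. Of the neural crest markers, Ets1 and Snai2 were higher, while Sox10, Foxd3, Tfap2a and Tfap2b were under 4 in both day 5 cultures. Of the motor neuron and ventral progenitor markers, 8 of 11 tested were lower: Slc18a3, the vesicular acetylcholine transporter, was at least 134-fold lower, Lhx4, Lhx3 and Mnx1 were 14.2-, 12- and 11.1-fold lower, while the progenitor genes Nkx6-1 (0.01), Nkx6-2 (-0.14) and Olig2 (-0.89) had no call and were named after their values were seen. The summed level of 14 genes was 9190 to 9820 in the Cdx2 and FGF cultures, 24100 to 27500 in the motor neuron cultures and 443 to 639 in ES cells. In cultures measured in bulk, fewer cells of a type and less RNA per cell cannot be told apart. The part of these cell types in the HoxA differences was not tested.

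Against ES cells, the motor neuron cultures were higher on the 3′ side of the cluster, while no probe set of the 5′ side was called. All 8 tested probe sets of Hoxa2 to Hoxa5 were called higher, against 31.9% of all tested probe sets, 0 were lower, against 27.9%, and the 3 of Hoxa7 and Hoxa9 had no call. Of these 8 probe sets, 6 were under 4 on all ES arrays and passed the filter through the day 5 cultures, so their direction was fixed by the filter and the count is a description. The motor neuron arrays lay wholly above the ES arrays for 8 of the 11, against 39.7% of all tested probe sets. The median over the 11 was 7.29, against 0.1 over all tested probe sets. Hoxa5 1448926_at was at least 386-fold higher (10.13, adjusted p = 1.74e-09), Hoxa3 1452421_at at least 389-fold, Hoxa4 1427354_at at least 88.4-fold and Hoxa2 at least 80.2-fold. Hoxa7 differed by 0 (adjusted p = 0.995) and the Hoxa9 probe sets by 0 and -0.51 (adjusted p = 0.987 and 0.257), with values under 4 in both groups, where no difference could be seen. Centring each array on its median moved the middle of all tested probe sets in this comparison to 0.535, against 0.101 as deposited, and turned the 6873 higher and 6015 lower calls into 8473 and 4710.

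The Cdx2 and FGF cultures lay above ES cells across the whole measured cluster up to Hoxa9. Of the 11 tested probe sets, 10 were called higher, against 31.4% of all tested probe sets, and 0 lower, against 24.7%. Here 9 of the 11 were under 4 on all ES arrays and were tested only because a day 5 culture was high, so these counts describe the members and carry no weight of their own. All 11 had no overlap, with the Cdx2 and FGF arrays wholly above, against 41.3% of all tested probe sets, and the median was 5.29, against 0.14. Hoxa2 was at least 15.4-fold higher (5.48, adjusted p = 1.71e-07), Hoxa3 1452421_at at least 63-fold (6.99) and Hoxa5 1448926_at at least 33.8-fold (6.61). Hoxa7 rose by 3.7, and the Hoxa9 probe sets by 8.18 and 8.48, close to their differences from the motor neuron cultures, and these comparisons share the Cdx2 and FGF arrays. Centring here moved the middle of all tested probe sets to 0.584, against 0.143, and the 6758 higher and 5312 lower calls to 8590 and 3977.

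Hoxa4 was the member for which this comparison was least settled. Probe set 1427354_at was called higher by 1.47 (adjusted p = 0.000481), but with values under 4 raised to 4 the difference was 0.04 (adjusted p = 0.865), since 2 of the 3 Cdx2 and FGF arrays and all ES arrays were under 4. Probe set 1420226_x_at was higher by 0.83 (adjusted p = 0.00822), short of a call, and reached one at 1.26 under median centring and at 1.15 when the 2 probe sets were averaged. Hoxa4 in the Cdx2 and FGF cultures was thus near its ES values on both probe sets, unlike Hoxa2, Hoxa3 and Hoxa5. That contrast between genes was not tested.

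**Figure D5:**
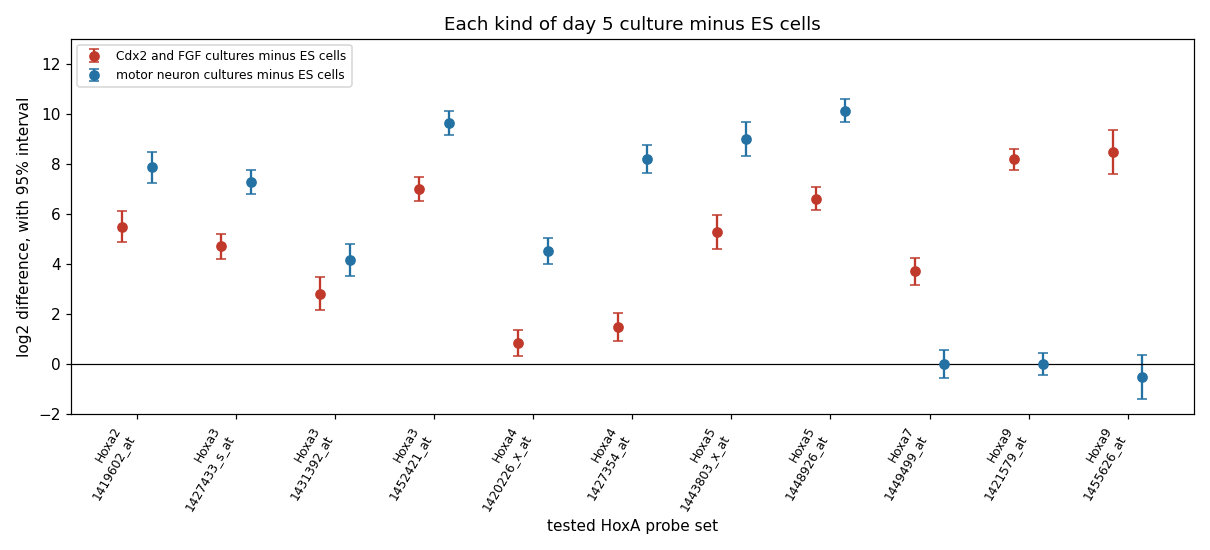
Log2 difference from ES cells for each tested HoxA probe set, ordered by paralog number, for the Cdx2 and FGF cultures and for the motor neuron cultures, with 95% intervals. For Hoxa2 to Hoxa5 the motor neuron points lie above the Cdx2 and FGF points, for Hoxa7 and Hoxa9 they lie near 0 while the Cdx2 and FGF points lie at 3.7 to 8.48, and both sets of points share the same ES arrays.

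The order of the 3 groups was thus the same within each side of the cluster. For Hoxa2, Hoxa3, Hoxa4 and Hoxa5 the motor neuron cultures were highest, the Cdx2 and FGF cultures next and ES cells lowest, with a call between neighbouring groups on every tested probe set except Hoxa4 1420226_x_at between the Cdx2 and FGF cultures and ES cells. The call of the other Hoxa4 probe set between those 2 groups was lost with values under 4 raised to 4 (0.04). The lower step of this order is thus not settled for Hoxa4. For Hoxa7 and Hoxa9 the Cdx2 and FGF cultures were highest, and the motor neuron cultures and ES cells did not differ beyond their spread. On 1455626_at, the ES value of 3.7 for Hoxa9 came from replicate 2, which also held the highest Hoxa10 value, 3.97. The fibroblast markers summed to 1950, 5930 and 9520 on ES replicates 1, 2 and 3, and the neural crest markers to 488, 1340 and 729, and the part of such cells in these values was not tested.

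Profiles across the 9 arrays were compared by Pearson's r, which with 3 groups mostly reflects the group means and is given as a description. Hoxa2, Hoxa3 and Hoxa5 followed each other at 0.982 to 0.999, Hoxa4 followed them less closely at 0.819 to 0.899, and Hoxa7 and Hoxa9 ran together at 0.986 to 0.991. Between the 3′ and the 5′ members r was -0.391 to 0.253. The genes most like Hoxa2 were Hoxb5, Hoxb6 and Asic2, an acid-sensing ion channel, at 0.9971 to 0.9978. Those most like Hoxa3 were Asic2, Syt11 and Psme3ip1 at 0.9987 to 0.9995, and those most like Hoxa4 were Onecut2, Hoxc5 and Pcdhb19 at 0.9956 to 0.9971. Hoxa5 was closest to Tshz1, to Hoxa3 itself and to Tafa5, at 0.9991 to 0.9994.

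On the 5′ side, Hoxa7 was closest to Cdx4 at 0.9999, to Timp4, an inhibitor of matrix proteases, at 0.9997 and to Itga5, the fibronectin receptor subunit, at 0.9996. These 3 genes, like Hoxa7, were highest on replicate 2 of the Cdx2 and FGF cultures: Hoxa7 read 7.58 there, Cdx4 6.06, Timp4 7.82 and Itga5 6.92. All of them were under 4 on the motor neuron and ES arrays. As the 3 genes were picked by r, the shared order follows from the selection and is no separate result. Hoxa9 was closest to Gcnt2 at 0.9998, Spsb1 at 0.9963 and Tmem255a at 0.9958. These genes and Hoxa9 were also under 4 on all motor neuron and ES arrays. Among the ES arrays each was highest on replicate 2, at 3.7 for Hoxa9, 3.06 for Gcnt2, 3.19 for Spsb1 and 3.84 for Tmem255a. That shared order among values under 4 again follows from the selection by r. Hoxa10, with all its values under 4, reached only 0.9112 to 0.9237, with Loxl3, Cds2 and Rictor.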

How the data were processed

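RNA amplified with NuGEN's Ovation kit, per the labels' protocols, was hybridised to Affymetrix mouse arrays. The deposited values were log2 levels per probe set, from 2.165 to 16.12, made by the authors with GCRMA, which corrects the background and normalizes between arrays, per the submitters' processing notes, which also name limma. No version is given, and no unit line was at hand, so the scale was inferred from their range. They were used without further normalization, and 0 other columns of samples were left unused.

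Probe sets were named through GEO's platform annotation, and promoters came from RefSeq (GRCm38.p6). After 64 control probe sets were left out, those over 4 on at least 3 of the 9 arrays were fitted with limma 3.58.1 (lmFit, then eBayes with a trend, in R 4.3.3; 6 residual degrees of freedom, 3 groups). Benjamini-Hochberg adjustment ran over all probe sets fitted. A call needed an adjusted p under 0.05 together with a log2 difference of 1 or more in size. Folds against a group under 4 are bounds, with values under 4 raised to 4. Standard errors and 95% intervals come from this fit. The fit was tested on simulated data.

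The members and gene lists were chosen with earlier results of these data known. Named were every HoxA probe set, Cdx2, the genes beside the cluster, up to 4 called genes of each list with the largest difference, and the 3 genes most correlated with each member. Each gene of a list was read from its probe set with the highest mean. The alternatives were quantile normalization again, median centring, other filters and variance priors, array weights, 1 probe set a gene or their mean, only the 6 arrays compared, the replicate number as a block, and leaving out each array.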

Additional observations from a re-analysis of the deposited data

How the results depend on the processing

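Over 660 HoxA results recomputed under the alternatives, 657 kept their side of the threshold, 2 gained a call and 1 lost it, and 0 called differences reversed. Differences with no call could change sign, such as that of Hoxa9 1421579_at between motor neuron cultures and ES cells (-0.01 to 0.43). All 3 exceptions concern Hoxa4 between the Cdx2 and FGF cultures and ES cells: 1427354_at fell to 0.04 with values under 4 raised to 4, and 1420226_x_at reached 1.26 under median centring and 1.15 with probe sets averaged. Taking 1 probe set a gene tests fewer features, and counts fell by construction. It gave 4 HoxA genes lower among 1220 higher and 939 lower calls between the Cdx2 and FGF and the motor neuron cultures, 4 HoxA genes higher among 2826 and 3346 between motor neuron cultures and ES cells, and 5 higher among 2774 and 2971 between the Cdx2 and FGF cultures and ES cells. Averaging all probe sets of a gene gave 4 lower among 1058 and 821, 4 higher among 2933 and 2518, and 6 higher among 2929 and 2102 in the same comparisons.

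With the replicate number as a block, the Cdx2 and FGF and the motor neuron cultures gave 3 HoxA probe sets higher and 8 lower, as without it, among 2313 higher and 1815 lower calls. The labels do not pair the samples by number, and correlations of the deviations of same-numbered arrays were -0.0281 to 0.106 over 9 pairs, 1 of them over 0.1, and in 6 of the 9 the array of the same number was the best match, a hint from the data and not from the design. A filter at 6 left Hoxa3 1431392_at untested and gave 7 lower. Leaving out each array in turn gave 3 HoxA probe sets higher and 8 lower each time.

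The limits are the 3 arrays a group, whose separate origin is not stated, the threshold of 4, under which Hoxa10 on all arrays and Hoxa7 and Hoxa9 in 2 of the groups lie, and the ES arrays, which differ from the others in their control probe sets.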
